A study of Homo sapiens with 6 samples.

Results

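The genes described here are 9 components and regulators of the complement system, taken as the rows of the deposited count table whose symbol is C3, C1S, C1R, CFB, CFI, CD55, CD46, CD59 or SERPING1, and they are 9 of the 28675 genes in that table. The cells were MDA-MB-231, a human line from a triple-negative breast cancer, a type that lacks hormone receptors and HER2 amplification, and their mRNA was sequenced. The tested group was 3 libraries (OE_LARP6) from cells overexpressing LARP6, a La-related RNA-binding protein, and the other group was 3 libraries (NC) from cells with a no-load control. Both groups are the same cell line with no other treatment named in the labels, and the labels state neither the vector nor the source cultures. Replicates may therefore share a culture, and p-values cover the spread seen among the 6 libraries, technical or not. The study asked which RNAs LARP6 binds and regulates in these cells. The 9 genes were picked with the LARP6 against control results of these libraries already known, so their changes between the groups are given as a description and support nothing by themselves.

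Complement is a cascade of plasma and cell-surface proteins that tags and lyses targets. It starts when the C1 complex binds antibody (the classical route), when lectins bind sugars, or by slow spontaneous activation of C3 (the alternative route), and all routes meet at the cleavage of C3. Host cells, tumour cells among them, are shielded by membrane-bound and soluble inhibitors. Much of the plasma supply comes from the liver, and many other cells, including epithelial and tumour cells, transcribe some of the components, often more strongly under inflammatory cytokines.

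RefSeq promoter entries on GRCh38.p14 were found for 6 of the 9 genes (C1R, CFB, CFI, CD55, CD46 and CD59) and not for C3, C1S and SERPING1. The 250 bases before the annotated start are shown for the tested members with an entry whose libraries did not overlap between the groups, C1R and CFB below the controls and CD46 and CD59 above them. Capitals mark matches, on either strand, to 5 motifs, namely the kappaB consensus, TTCNNNGAA (the form of a STAT site), GAAANNGAAA (the core of an interferon response element), TGANTCA (the form of an AP-1 site) and TATAAA. C1R lies at chr12:7092446-7092695, minus strand; CFB at chr6:31945845-31946094, plus strand; CD46 at chr1:207751788-207752037, plus strand; and CD59 at chr11:33736480-33736729, minus strand.
C1R: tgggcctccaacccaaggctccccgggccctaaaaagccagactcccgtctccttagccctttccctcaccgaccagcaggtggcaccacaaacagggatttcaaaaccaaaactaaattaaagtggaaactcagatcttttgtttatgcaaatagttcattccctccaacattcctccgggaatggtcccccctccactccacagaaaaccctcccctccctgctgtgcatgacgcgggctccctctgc
CFB: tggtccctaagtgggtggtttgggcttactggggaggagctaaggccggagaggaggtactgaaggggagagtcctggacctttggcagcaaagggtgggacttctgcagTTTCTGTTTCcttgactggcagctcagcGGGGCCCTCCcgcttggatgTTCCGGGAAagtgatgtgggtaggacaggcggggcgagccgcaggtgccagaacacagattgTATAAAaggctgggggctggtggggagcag
CD46: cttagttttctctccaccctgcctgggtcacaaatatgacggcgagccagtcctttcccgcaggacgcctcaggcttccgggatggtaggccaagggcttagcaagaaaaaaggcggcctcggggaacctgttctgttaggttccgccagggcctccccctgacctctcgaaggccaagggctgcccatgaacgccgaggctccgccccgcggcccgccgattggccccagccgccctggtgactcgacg
CD59: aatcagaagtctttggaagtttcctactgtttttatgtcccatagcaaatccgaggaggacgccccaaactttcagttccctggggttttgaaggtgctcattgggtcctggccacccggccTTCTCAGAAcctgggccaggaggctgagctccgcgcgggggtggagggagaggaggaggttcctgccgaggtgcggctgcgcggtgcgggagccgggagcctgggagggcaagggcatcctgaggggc
The CFB window held 4 of the 5 motifs. A TTTCTGTTTC run, a match to GAAANNGAAA on the opposite strand, lay 140 to 131 bases before the start, a GGGGCCCTCC kappaB match at 112 to 103, a TTCCGGGAA match at 92 to 84 and a TATAAA match at 30 to 25. The CD59 window held 1 match, TTCTCAGAA at 128 to 120 bases before the start, and the C1R and CD46 windows held none, nor did those of CD55 and CFI. Over 27305 promoters of the same length, the shares with a match were 9.57% for the kappaB consensus, 6.78% for TTCNNNGAA, 3.07% for GAAANNGAAA, 6.6% for TGANTCA and 11.1% for TATAAA. A match is a run of letters and not a measured binding site.

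The libraries held 29409101 to 33387050 counts each, and no pair of the same group was a repeat within sampling noise (chi-square per gene of 2.06 to 3.62), so each counted once. LARP6 itself matched the labels, with 1995, 2198 and 2131 CPM in LARP6 libraries 1, 2 and 3, against 44.2, 40.7 and 43.3 CPM in control libraries 1, 2 and 3, a 49.3-fold difference. CPM is the read count of a gene scaled to a common library size, computed here from the deposited counts with TMM scaling, which sets the libraries level on the bulk of genes. Of the markers listed for the line, VIM, CD44, EGFR and AXL were all expressed and ESR1 and PGR stayed at or under 0.221 CPM in every library, while ERBB2 (at least 54.2 CPM) and the keratin gene KRT8 (1040 CPM or more) were present although listed as low. Of 6 hepatocyte markers, CPS1 was above 1 CPM, ALB, APOA1, APOB and FGB were at or near 0 and TTR had no row. The summed level of 6 fibroblast markers was 8.48 to 10.8 CPM in LARP6 libraries and 8.41 to 10.8 CPM in control libraries. Of 8 leukocyte markers, CD14, CSF1R and ITGB2 were above 1 CPM, while PTPRC and LYZ were at or under 0.473 CPM, CD3E was at or near 0, C1QA had no row, and the summed level of the list was 40.3 to 43.0 CPM in LARP6 libraries, against 46.9 to 48.8 CPM in control libraries. CD14 alone ran from 8.97 to 10.2 CPM in LARP6 libraries and 12.3 to 12.5 CPM in control libraries, and the part of these markers in the complement differences was not tested. Less RNA per cell and fewer expressing cells cannot be told apart in these bulk libraries.

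Of the 9 members, 7 passed the filter on low counts and CFI and SERPING1 did not. With edgeR's quasi-likelihood test over all 16226 genes tested (called at a Benjamini-Hochberg adjusted p below 0.05), 3 members were lower in LARP6 libraries (C3, C1S and C1R), 2 were higher (CD46 and CD59) and CFB and CD55 were not called, beside a background of 6.03% of all tested genes called, 3.6% lower and 2.43% higher. The LARP6 and control libraries did not overlap in 6 of the 7, beside 22.3% of all tested genes. The median log2 fold change was -0.321 over these 7 members and 0.004 over all tested genes. Because these genes were chosen on this contrast, nothing is read from those counts. Among the members, C3, C1S, C1R and CFB are soluble activating components and had negative fold changes. The membrane inhibitors CD55, CD46 and CD59 had positive ones, except that CD55 was at -0.03 with GC and length offsets. These offsets, a setting added after seeing the data, level each library's dependence on transcript GC content and length. CFB (-0.52 ± 0.26 on the log2 scale, SE) and CD55 (0.03 ± 0.03) were not called, and a split by function was not tested. Soluble activating components outside the members had log2 fold changes of both signs, from -0.18 (CFD) to 0.31 (CFP), and none was called.

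C3, the protein on which all routes of activation converge, lies on chromosome 19 from 6677704 to 6730562 (minus strand, GRCh38, GENCODE v29; ENSG00000125730.17 in the files). Its level was 84.3, 86.1 and 89.6 CPM in LARP6 libraries 1, 2 and 3, against 130.2, 143.8 and 147 CPM in control libraries 1, 2 and 3. Every LARP6 library lay below every control library, and control library 1 was the lowest control. The means were 86.7 ± 2.72 CPM in LARP6 libraries and 140.5 ± 9.05 CPM in control libraries (SD, n = 3 each), a log2 fold change of -0.70 ± 0.04 (SE), or -38.3%. It rested on 7977 counts over the LARP6 libraries and 13046 over the controls. C3 had the smallest error relative to its change among the members, and its log2 fold change stayed between -0.75 and -0.66 with any 1 library left out.

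C1S and C1R are the serine proteases of the C1 complex, in which C1r cleaves and activates C1s, and their genes lie close together on chromosome 12. C1S (6988259 to 7071032, plus strand; ENSG00000182326.15) had 4.42, 4.21 and 4.54 CPM in LARP6 libraries 1, 2 and 3, against 7.45, 7.35 and 6.86 CPM in control libraries 1, 2 and 3. The groups were well apart, and C1S was the member with the largest fold change past the test, at -0.72 ± 0.12 on the log2 scale (SE), or -39.1%. C1R (7080199 to 7092607, minus strand; ENSG00000159403.18) had 17.0, 16.5 and 17.1 CPM in LARP6 libraries 1, 2 and 3, against 18.9, 22.1 and 22.2 CPM in control libraries 1, 2 and 3. Its groups did not overlap either, although control library 1 lay nearer to the LARP6 libraries than to the other controls. The change was -0.32 ± 0.07 on the log2 scale (SE), or -20.0%, and it was -0.39 without control library 1. C1R was not called in any of the 3 fits on log2 FPKM (-0.28 to -0.22), which called at most 92 of all genes.

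The ratio of the 2 protease genes was lower in every LARP6 library than in any control library. By the authors' FPKM, which is scaled for gene length, C1S over C1R was 0.235, 0.229 and 0.240 in LARP6 libraries 1, 2 and 3, against 0.353, 0.297 and 0.275 in control libraries 1, 2 and 3. The LARP6 ratios averaged 0.234 ± 0.00515 and the control ratios 0.309 ± 0.0401 (SD, n = 3 each), with control library 1 the highest. C1S had 128 to 144 counts in a LARP6 library and 217 to 227 in a control library. Counting error alone therefore spreads these ratios, and their difference was not tested. C1R shares 672 exonic bases with its neighbour C1RL, on the same strand, in GENCODE v29, and C1S shares 229 with EMG1. C1RL, which encodes a C1r-like protease, averaged 6.24 ± 0.239 CPM in LARP6 libraries and 6.68 ± 0.361 CPM in control libraries (SD, n = 3 each). EMG1, a ribosome biogenesis gene, averaged 76.1 ± 0.467 CPM in LARP6 libraries and 77.9 ± 1.88 CPM in control libraries (SD, n = 3 each). Neither of these overlapping genes was called, and how reads in the shared bases were assigned is not given in the sources used here.

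**Figure D1:**
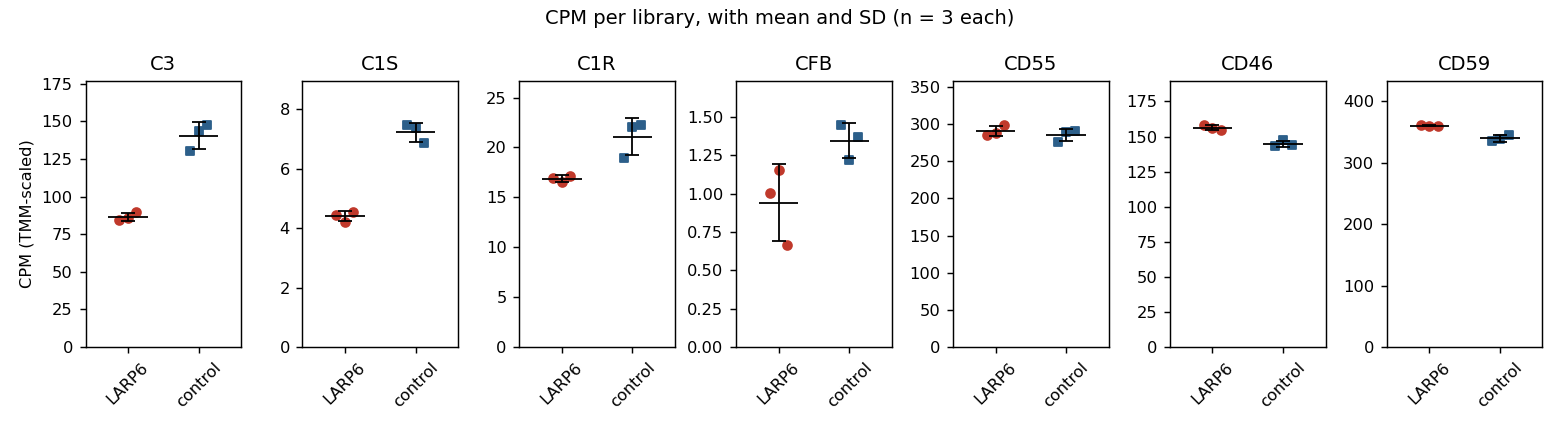
CPM per library (vertical axis, from 0) of the 7 tested members, with LARP6 libraries as red circles and control libraries as blue squares; black lines are means and bars the SD (n = 3 each). C3, C1S and C1R sit lower in all 3 LARP6 libraries, CD46 and CD59 sit slightly higher, and CD55 overlaps.

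CFB encodes factor B, the protease subunit of the alternative-route C3 convertase, and was low in the table. CFB (chromosome 6, 31945650 to 31952084, plus strand; ENSG00000243649.9) had 30, 35 and 21 counts in LARP6 libraries 1, 2 and 3, against 44, 36 and 45 counts in control libraries 1, 2 and 3. These were 1.00, 1.15 and 0.662 CPM in the LARP6 libraries, against 1.44, 1.22 and 1.37 CPM in the controls. The groups did not overlap, but the LARP6 libraries were spread (26.7% coefficient of variation) and the log2 fold change of -0.52 ± 0.26 (SE) was not called. Without LARP6 library 3, which had the fewest CFB counts, it was -0.32 ± 0.28.

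The CFB row cannot be read apart from an overlapping gene. Another row, typed as protein coding and without a description, is XXbac-BPG116M5.17 (ENSG00000244255.5). In GENCODE v29 it runs on the same strand from 31927698, inside C2, to 31952048, inside CFB. Of its 4069 exonic bases, 2249 are shared with CFB and 1820 with C2, so nearly all lie in exons of those genes. That is the layout of a readthrough of C2 into CFB. XXbac-BPG116M5.17 had 39.8, 36.8 and 42.2 CPM in LARP6 libraries 1, 2 and 3, against 53.2, 58.3 and 53.6 CPM in control libraries 1, 2 and 3. All LARP6 libraries were below all controls, and edgeR put the change at -0.47 ± 0.05 (SE) on the log2 scale with an adjusted p of 9.52e-15. C2, the classical-route counterpart of factor B, averaged 14.6 ± 0.807 CPM in LARP6 libraries and 15.9 ± 0.75 CPM in control libraries (SD, n = 3 each), and was not called (-0.13 ± 0.08 on the log2 scale, SE; adjusted p = 0.387 in edgeR). Gene-level counts cannot divide the reads of the shared exons among CFB, C2 and the overlapping gene, so the level of CFB itself is uncertain and was not resolved here.

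**Figure D2:**
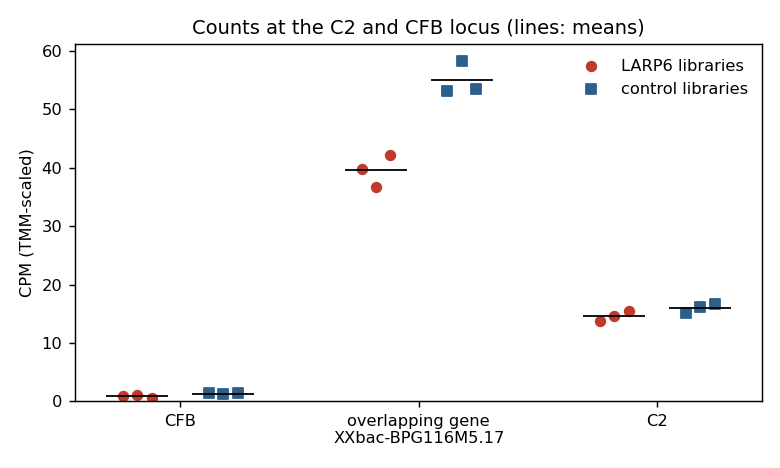
CPM per library (vertical axis, from 0) of CFB, of the gene XXbac-BPG116M5.17 whose exons overlap those of CFB and C2, and of C2; LARP6 libraries are red circles, control libraries blue squares and lines are means. The overlapping gene carries 36.8 to 42.2 CPM in LARP6 libraries and 53.2 to 58.3 CPM in control libraries, far above the 0.662 to 1.44 CPM of CFB.

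The soluble inhibitors among the members were barely detected. CFI (chromosome 4, 109740694 to 109802179, minus strand; ENSG00000205403.14) encodes factor I, the plasma protease that cuts C3b and C4b, and had 9, 5 and 3 counts in LARP6 libraries 1, 2 and 3, against 7, 4 and 3 counts in control libraries 1, 2 and 3. SERPING1 (chromosome 11, 57597387 to 57614853, plus strand; ENSG00000149131.17) encodes the C1 inhibitor, a serpin that inactivates C1r and C1s, and had 1, 2 and 5 counts in LARP6 libraries 1, 2 and 3, against 0, 5 and 7 counts in control libraries 1, 2 and 3. Both genes overlapped between the groups and stayed at or under 0.302 CPM in every library. Without TMM scaling, the exact 95% Poisson interval was 0 to 0.121 CPM for the 0 counts of SERPING1 in control library 1, whose one-sided floor of 3 counts is 0.098 CPM. For the 9 counts of CFI in LARP6 library 1, the same interval was 0.14 to 0.581 CPM, and these limits cover counting error only. A modest difference in CFI or SERPING1 could not be resolved at this depth, and the size that could be was not computed. Both genes were tested only in the settings without a low-count filter, and neither was called there. AC004067.6 shares 1562 exonic bases with CFI on the same strand. It was itself low, at 0.466 ± 0.103 CPM in LARP6 libraries and 0.238 ± 0.0787 CPM in control libraries (SD, n = 3 each). It was not called (0.97 ± 0.45 on the log2 scale, SE, with an adjusted p of 0.207 in edgeR). The division of reads in the shared bases is not known, so the level of CFI itself is also uncertain.

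The membrane inhibitors CD55 and CD59 were the most abundant members in both groups. CD46, also a membrane inhibitor, came next in LARP6 libraries and overlapped C3 in control libraries. CD55 (decay-accelerating factor), which takes apart C3 convertases on the cell's own surface, had 285, 288 and 298 CPM in LARP6 libraries 1, 2 and 3, against 276, 289 and 290.1 CPM in control libraries 1, 2 and 3. The groups overlapped, and the log2 fold change was 0.03 ± 0.03 (SE), with a 95% interval of -0.03 to 0.08. CD46 (membrane cofactor protein), which lets factor I cut C3b bound to host cells, had 158, 156 and 155 CPM in LARP6 libraries 1, 2 and 3, against 143, 147 and 144 CPM in control libraries 1, 2 and 3. All LARP6 libraries were above all controls, by 0.11 ± 0.03 on the log2 scale (SE), or 8.0%. CD59 (protectin), which blocks assembly of the membrane attack complex, had 361, 359 and 360.4 CPM in LARP6 libraries 1, 2 and 3, against 335, 339 and 346 CPM in control libraries 1, 2 and 3, and here too the groups did not overlap. Its log2 fold change was 0.08 ± 0.03 (SE), or 5.93%.

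These increases were small, and their calls depended on the processing and on single libraries. With GC and length offsets, CD46 was at 0.01 ± 0.03 on the log2 scale and CD59 at 0.07 ± 0.02, and neither was called. CD46 also lost its call without LARP6 library 1 (0.10 ± 0.04), without LARP6 library 2 (0.11 ± 0.04) or without control library 1 (0.10 ± 0.04), and CD59 lost its call without any 1 library except control library 3 and in 11 of 19 alternatives in all. In simulated counts, 16.8% of genes changed 1.1-fold were recovered. Those genes were drawn from all tested genes at any level, so the share does not measure recovery at the level of CD46 and CD59. CD55 (207321376 to 207386804; ENSG00000196352.16) and CD46 (207752057 to 207795513; ENSG00000117335.20) lie on the plus strand of chromosome 1 and CD59 (33703010 to 33736491; ENSG00000085063.17) on the minus strand of chromosome 11. CD59 shares 629 exonic bases with RP4-541C22.8 on the same strand, which averaged 159 ± 3.47 CPM in LARP6 libraries and 156 ± 6.67 CPM in control libraries (SD, n = 3 each) and was not called (0.03 ± 0.03 on the log2 scale, SE; adjusted p = 0.706 in edgeR). How reads in those bases were divided is not known.

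Levels of different genes can be set against each other only per length, here by the authors' FPKM. In LARP6 libraries the order ran from CD55 (44.9 ± 1.16 FPKM) through CD59 (30.4 ± 0.0656), CD46 (16.0 ± 0.120), C3 (9.30 ± 0.309), C1R (2.59 ± 0.0513) and C1S (0.607 ± 0.0252) to CFB (0.177 ± 0.0513; SD, n = 3 each). No 2 neighbours in that order overlapped among these 7. In both groups the place of CFB is that of its own row, which shares 2249 exonic bases with XXbac-BPG116M5.17. That gene held 39.6 ± 2.74 CPM in LARP6 libraries and 55.0 ± 2.85 CPM in control libraries (SD, n = 3 each), so the level of CFB is uncertain. In control libraries CD55 (43.4 ± 0.996 FPKM) and CD59 (28.2 ± 0.337) again led, but C3 (14.8 ± 0.888) and CD46 (14.5 ± 0.200) overlapped, with 13.8 to 15.48 FPKM for C3 and 14.41 to 14.77 FPKM for CD46. C1R (3.18 ± 0.274), C1S (0.973 ± 0.0473) and CFB (0.25 ± 0.02) followed without overlap. CFI and SERPING1 were listed at 0.06 FPKM or less in every library and overlapped each other in both groups.

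C3 and the membrane inhibitors stood in different proportions in LARP6 and control libraries. The sum of CD46, CD55 and CD59 was 91.2 ± 1.1 FPKM in LARP6 libraries and 86.1 ± 1.29 FPKM in control libraries (SD, n = 3 each). FPKM values were used as deposited, without TMM scaling. On log2(FPKM + 1), CD46, CD55 and CD59 changed by 0.13, 0.05 and 0.1, against 0.11, 0.03 and 0.08 with TMM. The difference in the sum was not tested. C3 over that sum was 0.0997, 0.102 and 0.104 in LARP6 libraries 1, 2 and 3, against 0.163, 0.175 and 0.178 in control libraries 1, 2 and 3. C3 over C1R was 3.59 ± 0.108 in LARP6 libraries and 4.67 ± 0.142 in control libraries (SD, n = 3 each), so C3 and C1R were lower by unequal amounts. The coefficient of variation of CPM within LARP6 libraries was 0.252% for CD59 and 3.14% for C3, while within control libraries it was 1.59% for CD59, 6.45% for C3 and 8.91% for C1R. These values include counting error and rest on n = 3 each, so they do not rank the members by spread. The 0.252% of CD59 is below the counting error expected of its counts.

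**Figure D3:**
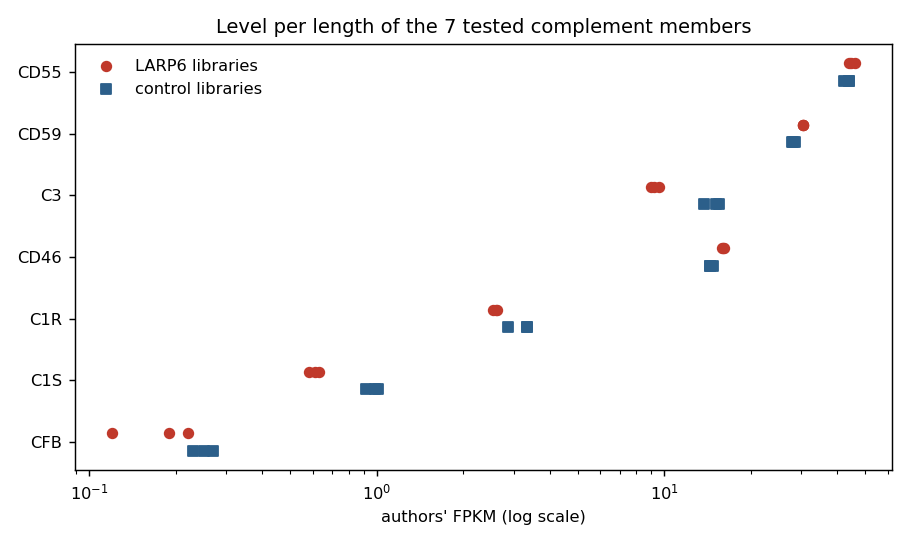
Authors' FPKM (horizontal axis, log scale) of the 7 tested members, with LARP6 libraries as red circles above control libraries as blue squares. C3 and CD46 lie apart in LARP6 libraries, at 9.02 to 9.63 FPKM for C3 and 15.85 to 16.09 FPKM for CD46, and together in control libraries, at 13.8 to 15.48 and 14.41 to 14.77 FPKM. The place of CFB is uncertain, because it shares exons with XXbac-BPG116M5.17.

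The rest of the complement system gave no called gene. Of 50 further components, regulators and receptors listed from textbook knowledge, 13 had no row in the table used here, 22 were in it with too few reads to test (at most 22 counts in any library) and 15 were tested. None of the 15 was called by edgeR, against 6.03% of all tested genes, and 4 had an unadjusted p under 0.05. DESeq2 and limma-voom called 0 of the 15 as well, and DESeq2 gave no adjusted p for 8 of them. The median log2 fold change of the 15 was -0.04, with a range of -0.18 (CFD) to 0.31 (CFP). With library sizes unscaled, 1 of them, C4BPB, was called as higher.

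In the classical and lectin list, 4 of 15 genes were tested. C2 and C1RL are given above. C4A averaged 0.413 ± 0.0743 CPM in LARP6 libraries and 0.439 ± 0.118 CPM in control libraries, and C4B, its near-identical copy, 0.979 ± 0.0516 CPM in LARP6 libraries and 0.918 ± 0.488 CPM in control libraries (SD, n = 3 each). These C4 genes encode the protein that C1s cleaves, and reads can be split between them. C1QA, C1QB and C1QC encode the chains of the antibody-binding part of C1, and only C1QC had a row, with 0 counts in every LARP6 library and at most 2 in a control library.

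In the alternative and terminal list, 3 of 9 genes were tested. CFD encodes factor D, which cleaves factor B, and averaged 4.90 ± 0.0709 CPM in LARP6 libraries and 5.57 ± 1.27 CPM in control libraries (SD, n = 3 each), or -0.18 ± 0.13 on the log2 scale (SE; adjusted p = 0.483 in edgeR), and 0.01 without control library 1. CFP encodes properdin, which stabilises the alternative convertase, and averaged 4.34 ± 0.520 CPM in LARP6 libraries and 3.50 ± 0.430 CPM in control libraries (SD, n = 3 each), or 0.31 ± 0.15 on the log2 scale (SE; adjusted p = 0.218 in edgeR). C5, the first component of the terminal route, averaged 2.23 ± 0.455 CPM in LARP6 libraries and 1.91 ± 0.419 CPM in control libraries (SD, n = 3 each), or 0.21 ± 0.20 on the log2 scale (SE; adjusted p = 0.614 in edgeR). All 3 genes overlapped between the groups.

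Among other regulators, 6 of 16 genes were tested. C4BPB, the beta chain of C4b-binding protein, averaged 68.3 ± 2.99 CPM in LARP6 libraries and 63.3 ± 1.76 CPM in control libraries (SD, n = 3 each), or 0.11 ± 0.04 on the log2 scale (SE; adjusted p = 0.0900 in edgeR), while its partner C4BPA had at most 1 count in any library. CLU (clusterin, a terminal-route inhibitor) was at 59.5 ± 2.25 CPM in LARP6 libraries and 60.7 ± 2.53 CPM in control libraries, and THBD (thrombomodulin) at 61.2 ± 2.42 CPM in LARP6 libraries and 63.0 ± 2.33 CPM in control libraries (SD, n = 3 each), and their log2 fold changes were -0.03 ± 0.04 for CLU and -0.04 ± 0.04 for THBD (SE). SUSD4 averaged 2.38 ± 0.545 CPM in LARP6 libraries and 2.10 ± 0.561 CPM in control libraries (SD, n = 3 each), and VTN stayed under 1 CPM.

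Of 10 receptors, 2 were tested. ITGB2, the beta chain of complement receptors 3 and 4, was at 30.2, 28.4 and 28.97 CPM in LARP6 libraries 1, 2 and 3, against 31.4, 31.9 and 33.4 CPM in control libraries 1, 2 and 3, without overlap (-0.14 ± 0.06 on the log2 scale, SE; adjusted p = 0.117 in edgeR). Its alpha-chain partners ITGAM and ITGAX had at most 5 counts in any library. C1QBP, a mitochondrial protein that also binds C1q, averaged 299 ± 0.181 CPM in LARP6 libraries and 308 ± 6.36 CPM in control libraries (SD, n = 3 each), without overlap and not called (-0.04 ± 0.03 on the log2 scale, SE; adjusted p = 0.418 in edgeR). The anaphylatoxin receptor genes C3AR1, C5AR1 and C5AR2 had too few reads to test.

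**Figure D4:**
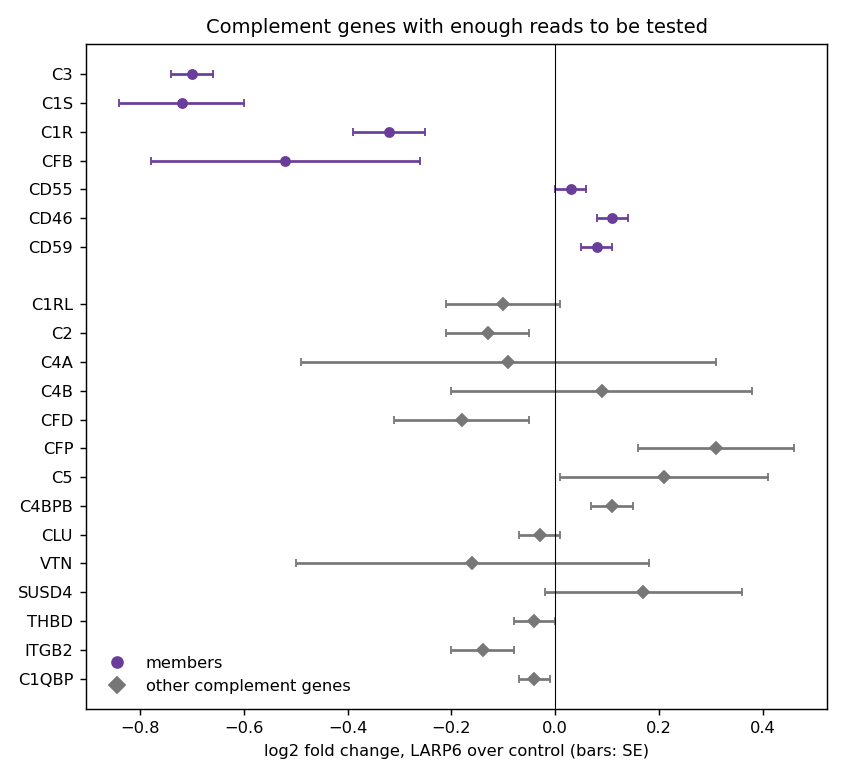
Log2 fold change of LARP6 over control libraries (horizontal axis, bars are SE) for the 7 tested members (purple circles) and 14 other tested complement genes (grey diamonds). C3, C1S and C1R lie at -0.70, -0.72 and -0.32, and CFB, not called, at -0.52 ± 0.26. CD55, CD46 and CD59 lie at 0.03, 0.11 and 0.08, and the 14 other complement genes between -0.18 and 0.31.

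Genes next to the members were examined as well, as 77 tested genes whose transcription start lies within 200 kb of a member's. Of these, 10 were lower and 2 higher in LARP6 libraries, or 15.6%, against 6.03% of all tested genes. The called genes include XXbac-BPG116M5.17, which shares exons with CFB, and CTD-3128G10.7, which lies inside C3. Their counts may hold reads of those members, which were chosen on this contrast. The share is therefore not separate from the members, and nothing is read from it. By member, 3 of 8 neighbours of C3 were called, 2 of 20 of C1S, 2 of 12 of C1R (the same pair, which lies near both), 3 of 24 of CFB, 1 of 2 of CD46 and 3 of 12 of SERPING1, and none of 6 of CFI or 4 of CD59. The count of 12 fell to 7 without LARP6 library 1 or LARP6 library 2, to 8 without control library 1 and to 8 with GC and length offsets, and it was 8 with library sizes unscaled.

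The neighbour of C3 with the largest change was CTD-3128G10.7, a non-coding gene that lies inside the C3 gene on the same strand (6716386 to 6717742). It had 1.34, 1.54 and 1.67 CPM in LARP6 libraries 1, 2 and 3, against 2.53, 2.98 and 2.53 CPM in control libraries 1, 2 and 3, or -0.81 ± 0.20 on the log2 scale (SE; adjusted p = 0.00316 in edgeR). It shares no exonic base with C3, and gene counts cannot tell it from unspliced C3 RNA. TRIP10 (-0.11 ± 0.03) and SH2D3A (-0.21 ± 0.07) were the other called neighbours of C3. Near C1S and C1R, ENO2, the gene of a glycolytic enolase, was higher (0.10 ± 0.03) and PHB2, a prohibitin gene, lower (-0.09 ± 0.03). Near CFB, VARS1 (-0.11 ± 0.03) and NEU1 (-0.12 ± 0.03) were lower beside the overlapping gene described above. Near CD46, the non-coding gene MIR29B2CHG was higher (0.59 ± 0.17), and its call was lost without LARP6 library 1 (0.47 ± 0.19) or control library 2 (0.58 ± 0.19). Near SERPING1, RTN4RL2 (-0.59 ± 0.10), RP11-872D17.8 (-0.19 ± 0.03) and SLC43A3 (-0.13 ± 0.03) were lower; all values are log2 fold changes with SE. The calls of CTD-3128G10.7, NEU1, RTN4RL2, RP11-872D17.8, SLC43A3 and the gene overlapping CFB held without any 1 library. Those of the other 6 did not, and TRIP10, SH2D3A, PHB2 and VARS1 also lost theirs both with the offsets and with library sizes unscaled.

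The genes whose levels followed C3 most closely over the 6 libraries were taken from 11072 genes with a mean of at least 5 CPM, by the root mean square difference of log2 CPM after each gene's own mean was taken off. The closest was ZC3H12A, the gene of an RNase that cuts inflammatory mRNAs (0.034), followed by SAA2 (0.065), an acute phase gene, the readthrough gene SAA2-SAA4 (0.072), IL32 (0.075) and CXCL8 (0.083), which encode cytokines. ZC3H12A had 26.3, 26.9 and 27.8 CPM in LARP6 libraries 1, 2 and 3, against 42.2, 43.2 and 44.98 CPM in control libraries 1, 2 and 3, and so ran in the same order as C3 across libraries. SAA2 and SAA2-SAA4 share sequence, so their levels are not separate. The genes closest to C1S were CXCL8 (0.056), CXCL2 (0.062), ZC3H12A (0.068), SAA2 (0.082) and C3 itself (0.09). These distances describe 6 libraries that differ mainly by group.

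**Figure D5:**
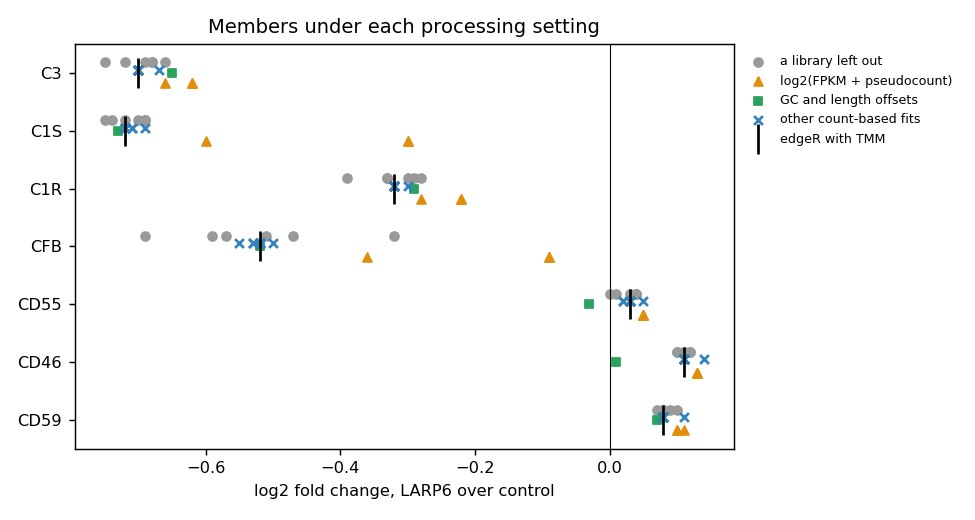
Log2 fold change of LARP6 over control libraries (horizontal axis) for each tested member under each processing setting; black ticks are the edgeR fit with TMM and other symbols the alternatives. C3 keeps between -0.75 and -0.62 and C1R between -0.39 and -0.22, while CD46 comes to 0.01 with GC and length offsets and CD55 to -0.03.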

How the data were processed

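RNA sequencing of MDA-MB-231 cells was analysed, with 3 libraries overexpressing LARP6 and 3 no-load control libraries, grouped and numbered by their titles. The libraries were stranded mRNA libraries read as pairs of 150 bases, per the labels' protocols. The authors deposited whole-number read counts per gene and FPKM values per gene, 1 column a library. HISAT2, DESeq2 and GRCh38 stand in the submitters' processing notes with no version. Which counter, strand setting and annotation were used is not given in the sources used here. Per gene, the deposited FPKM values of the members implied lengths of 5.35 to 11.9 kb, 1.07 to 1.15 times the summed exon length in GENCODE v29, so they are scaled by exon length.

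Counts were tested with edgeR 4.0.16 in R 4.3.3 (expression filter, TMM, robust quasi-likelihood test, no covariate). P-values were Benjamini-Hochberg adjusted over 16226 genes with a threshold of 0.05, and the SE is the log2 fold change over the root of its F value. The common dispersion corresponds to 3.23% variation between libraries. On simulated counts drawn from these libraries, the test found 43.2% of genes moved 1.2-fold, 79.2% of those moved 1.5-fold and 84.4% of those moved 2-fold, with 9.25% of its calls false. Alternatives were other scalings and filters, LARP6 left out, DESeq2 1.42.0, limma-voom (limma 3.58.1), limma on log2 FPKM with a pseudocount of 1 or 0.1, a block for replicate number, a stricter threshold of 0.01 and each library left out; GC and length offsets, with values for 98.9% of tested genes, were added after seeing the data.

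The members and lists were chosen with earlier results of these data known. The text names the 9 members, LARP6, other complement genes with a mean of at least 1 CPM or past the threshold, every called gene within 200 kb, and the 5 genes nearest in pattern to C3 and to C1S. C4A, C4B, VTN, EMG1, untested list genes and genes sharing exons with a member were named after their values were seen. Coordinates come from GENCODE v29 and promoters from RefSeq, matched by gene ID without version or by symbol. Exact intervals and floors cover counting error only: PCR copies were not told apart by molecular identifiers. Splicing and RNA binding were not analysed here, and the values of 1 tested complement gene are not reported here.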

Additional observations from a re-analysis of the deposited data

How the results depend on the processing

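C3, C1S and C1R were lower in every fit, with log2 fold changes of -0.75 to -0.62, -0.75 to -0.30 and -0.39 to -0.22. For C1S, the -0.30 came only with log2(FPKM + 1), a pseudocount near its own FPKM of 0.58 to 1.01. With log2(FPKM + 0.1) it was -0.60, and count-based fits gave -0.75 to -0.69. The count of 3 lower members became 0 with log2(FPKM + 1) and no filter, where 3 genes in all were called (1 higher and 2 lower), and DESeq2 gave no adjusted p for C1S. The members called, 5 in all, numbered 3 at an adjusted p below 0.01 and with GC and length offsets, 2 with log2(FPKM + 1) or log2(FPKM + 0.1), and 3 to 5 with 1 library left out. Of these, the higher members numbered 1 with upper-quartile scaling or no low-count filter, 0 with the stricter threshold, the offsets or any FPKM fit, and 0 to 2 with 1 library left out (CD46 and CD59). C1R lost its call with each FPKM fit.

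The 979 genes called (395 higher, 584 lower) became 617 with DESeq2 (211 higher), 90 with log2(FPKM + 1) (37 and 53), 92 with log2(FPKM + 0.1) (38 and 54), and 443 at an adjusted p below 0.01 (148 and 295). Unscaled library sizes gave 687 higher and 303 lower, and the offsets gave 232 higher. With 1 library left out they ran from 456 to 1040 (175 to 398 higher, 281 to 642 lower): leaving out LARP6 library 1 gave 459, LARP6 library 2 gave 456 and control library 2 gave 650. Other complement genes were 1 called, higher, with library size only.

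The neighbouring genes called, 12 in all, were 4 with log2(FPKM + 1) or log2(FPKM + 0.1), all lower, 0 with no filter on FPKM, and 6 at the stricter threshold, all lower. The lower ones were 6 with library size only or the offsets, and the higher ones 1 with DESeq2 or no low-count filter. With 1 library left out they ran from 7 to 14 (0 to 2 higher, 6 to 12 lower). The cause of these shifts was not tested. Directions turned for CD55 with the offsets (-0.03), CFD without control library 1 (range with 1 library left out -0.32 to 0.01), CLU without LARP6 library 3 or control library 3 (-0.06 to 0.00), and SUSD4 without LARP6 library 2 or control library 2 (-0.02 to 0.32), none of them called.

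The labels give both groups replicate numbers 1 to 3, but the series states no test design beyond the groups, and the main test took no pairs. Deviations from the group means correlated at 0.046, 0.028 and 0.101 over 13843 genes for the same-numbered libraries. Differently numbered libraries correlated at -0.075 to 0.031, so a pairing by number remains possible. With a replicate block, 1345 genes were called (518 higher, 827 lower), 5 members, 0 other complement genes and 12 neighbours. Every library except control library 2 correlated best with the library of its own number in the other group. CFB, CFI and SERPING1 are limited by depth, and CFB, CFI, CD59, C1R and C1S by exons shared with other genes.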
